A study of Rattus norvegicus with 57 samples.

Results

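The members described here are 8 genes that set how readily a kidney cell enters the cell cycle: the CDK inhibitors Cdkn1a, Cdkn1b, Cdkn1c, Cdkn2b and Cdkn2c, and the D cyclins Ccnd1, Ccnd2 and Ccnd3. They were chosen by gene symbol, as the inhibitors and D cyclins that GEO's annotation of the array names, and make up 8 of the 14217 genes that a probe set names alone. Each gene was read from its probe set with the highest mean level. RNA came from a kidney homogenate enriched in cortex, from male Han Wistar rats, 8 weeks of age, given cisplatin once by intraperitoneal injection at 0, 1 or 3 mg/kg, with saline as the vehicle. Cisplatin is a platinum drug that crosslinks DNA and injures the kidney tubule. The kidneys were taken 3, 5, 8 or 26 days after the dose. Control rats received saline, and each of the 12 groups of dose and day held 5 animals with 1 array each, except 4 for the controls of day 26 and 3 for 1 mg/kg on day 5. The labels name no genetic change in any animal. In such bulk tissue, fewer cells of a type and less RNA per cell cannot be told apart.

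Cyclin-dependent kinases are active when bound to a cyclin. D cyclins bind Cdk4 and Cdk6 and start the phosphorylation of the retinoblastoma protein, which frees E2F factors to switch on genes of DNA replication. The Cip/Kip inhibitors p21 (Cdkn1a), p27 (Cdkn1b) and p57 (Cdkn1c) bind complexes of cyclin and kinase, while the INK4 inhibitors p15 (Cdkn2b) and p18 (Cdkn2c) bind Cdk4 and Cdk6. Cdkn1a is known for its induction after DNA damage, and in the kidney p57 is best known from the podocyte, the filtering cell of the glomerulus.

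Promoter sequence for 5 of the 8 members (Cdkn1a, Cdkn1b, Cdkn2b, Cdkn2c and Ccnd3) was taken from RefSeq, build GRCr8. The 250 bases before the annotated start are shown 5′ to 3′ for Cdkn1a, Cdkn1b and Ccnd3. On the brightest probe set of each gene, in the main fit, Cdkn1a moved most among the inhibitors and Cdkn1b passed no test. Ccnd3 was there the only D cyclin called. Capitals mark matches, on either strand, to the motifs searched.
Cdkn1a (GRCr8, chr20:7150682-7150931, plus strand): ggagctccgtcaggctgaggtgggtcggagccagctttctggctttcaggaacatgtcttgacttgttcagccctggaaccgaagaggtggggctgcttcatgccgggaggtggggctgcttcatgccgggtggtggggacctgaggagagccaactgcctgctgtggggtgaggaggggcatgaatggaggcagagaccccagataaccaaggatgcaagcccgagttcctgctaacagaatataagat
Cdkn1b (GRCr8, chr4:169491254-169491503, plus strand): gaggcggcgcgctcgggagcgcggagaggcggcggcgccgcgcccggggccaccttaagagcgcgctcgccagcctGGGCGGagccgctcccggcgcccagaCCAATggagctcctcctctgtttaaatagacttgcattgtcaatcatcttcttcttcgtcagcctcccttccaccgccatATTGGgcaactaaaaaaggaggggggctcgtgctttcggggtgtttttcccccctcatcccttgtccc
Ccnd3 (GRCr8, chr9:20897876-20898125, minus strand): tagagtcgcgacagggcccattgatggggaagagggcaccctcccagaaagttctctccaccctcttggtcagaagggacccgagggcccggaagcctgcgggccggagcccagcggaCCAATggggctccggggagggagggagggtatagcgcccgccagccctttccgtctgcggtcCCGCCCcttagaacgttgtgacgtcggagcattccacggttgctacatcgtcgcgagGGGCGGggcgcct
The motifs searched were the TATA box with letters TATAAA, the GC box with letters GGGCGG, the CCAAT box with letters CCAAT, the cAMP response element with letters TGACGTCA, the AP-1 site with letters TGACTCA, the E-box with letters CACGTG, and the E2F site as TTTGGCGC, as TTTCGCGC or as TTTCCCGC. Matches were counted whether or not they overlapped another motif. The Cdkn1a window held none of these motifs. The Cdkn1b window held 1 GC box and 2 CCAAT boxes, and the Ccnd3 window held 2 GC boxes and 1 CCAAT box. In the Cdkn2b window, which is not shown, there were 3 GC boxes and 1 cAMP response element, and in that of Cdkn2c 1 GC box. Over all 33469 promoters of the table, windows of the same length held a GC box in 30.5%, a CCAAT box in 34.0%, a TATA box in 12.9%, an E-box in 5.59%, an AP-1 site in 4.05%, a cAMP response element in 1.59% and an E2F site in 1.41%. A match describes letters, and the windows say nothing of elements that lie outside them.

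All 8 proximal tubule markers and all 6 markers of the loop of Henle and distal tubule passed the filter on low values, with summed proximal tubule signals of 17314 to 20262 in the day 3 controls. The 2 adrenal markers tested summed to at most 33.8 in any animal. Array medians lay between 20.3 and 26.1, and the correlation of arrays within a group between 0.961 and 0.993. The 3′/5′ signal ratio of actin, a sign of RNA quality, ran from 4.47 to 8.58 over the 57 arrays. On day 3 it was 4.66 ± 0.247 (SD, n = 5) in controls and 5.89 ± 0.101 (SD, n = 5) at 3 mg/kg, with no overlap. Each member's value was recomputed with the ratio in the fit, and the outcome is printed beside any call of a member that it ends. The pathway genes were not recomputed so.

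Of the 8 members, 7 passed the filter on low values and were tested, together with all 11683 genes. A call means an adjusted p under 0.05 from limma over all genes. Against the control of the same day, the members called at 3 mg/kg numbered 2 on day 3 (Cdkn1a and Cdkn1c), 3 on day 5 (Cdkn1a, Cdkn1c and Ccnd3), 1 on day 8 (Cdkn1a) and 1 on day 26 (Cdkn1a), all of them higher. Over all genes the share called was 9.85%, 8.8%, 37.3% and 0.753% on those days. The lower dose gave counts of 0, 0, 1 and 0, the single call being Cdkn1a on day 8, where the share of all genes was 0.0942%, 0.0171%, 0.522% and 0.00856%. On day 8 at 3 mg/kg, 1 of 7 is below the share of all genes called. The median log2 change over the 7 members was 0.02, 0.34, -0.02 and 0.09 at 3 mg/kg on days 3, 5, 8 and 26, and over all genes it was 0.04, 0.00019, 0.04 and 0.03.

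**Figure D1:**
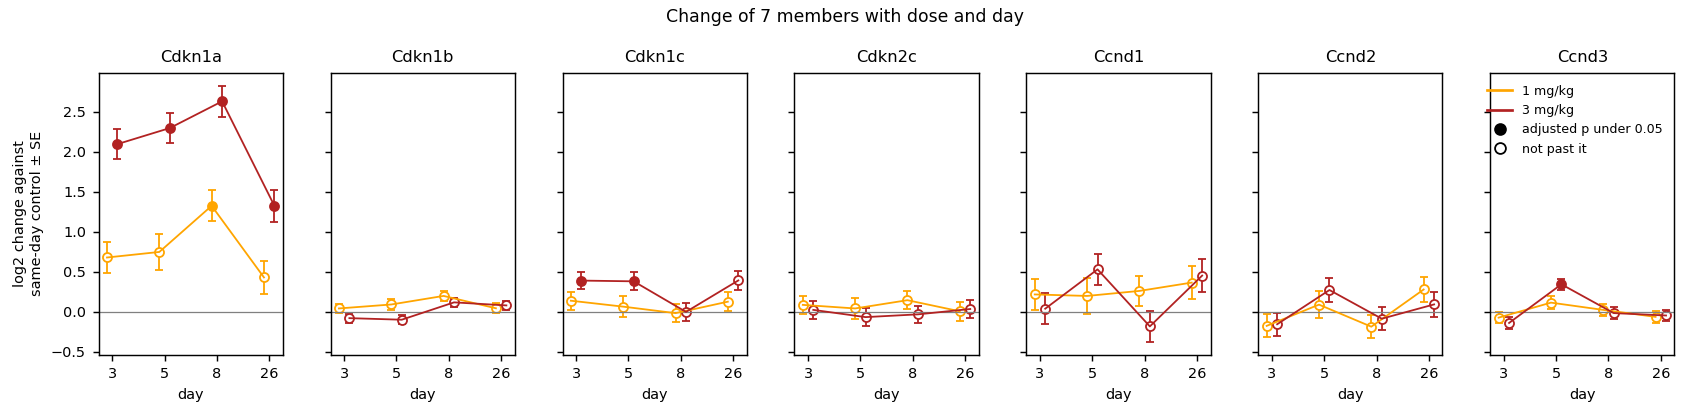
Log2 change of the 7 members tested against the control of the same day, with its standard error, on days 3, 5, 8 and 26 for 1 mg/kg and 3 mg/kg cisplatin. Filled points passed an adjusted p under 0.05. Each gene is shown on its brightest probe set. There Cdkn1a lies highest at both doses and peaks on day 8, at 2.63 for 3 mg/kg. The other 6 members stay between -0.19 and 0.53.

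Cdkn1a encodes p21, which stops the cycle after DNA damage. In control kidneys its signal was low: the day 3 animals read 45.6, 34.0, 53.6, 60.5 and 72.0, and the 19 controls of all days had a lowest signal of 34.0, a median of 45.5 and a highest of 72.0. At 3 mg/kg the day 3 animals read 218, 212, 259.6, 378 and 337, a mean of 281 ± 73.6 (SD, n = 5) against 53.1 ± 14.4 (SD, n = 5). Every dosed animal stood above every control. The log2 change was 2.09 ± 0.19 (SE), or 4.27-fold on the scale of signal + 16, with an adjusted p of 1.33e-11.

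On day 5 the 3 mg/kg animals read 387, 251, 276, 392 and 249.5, and the controls 44.5, 38.5, 59.7, 45.5 and 62.5. The groups were again apart, and the log2 change was 2.29 ± 0.19 (SE) (adjusted p = 9.44e-13). On day 8 the 3 mg/kg animals read 285, 381, 251, 574 and 547, a mean of 408 ± 148 (SD, n = 5), against 35.8, 43.4, 39.7, 67.8 and 65.6 in controls. Of the 12 groups, this one had the highest mean signal of p21 and the widest SD on the brightest Cdkn1a probe set. A second, dimmer probe set read 319, 195, 217, 138 and 91.6 at 3 mg/kg on day 5. On day 8 it read 173, 183, 187, 171 and 235, so there the day 5 animals were spread more widely. On the brightest probe set the log2 change of day 8 was 2.63 ± 0.19 (SE), or 6.18-fold (adjusted p = 4.93e-15). The change of the 3 mg/kg effect from day 3 to day 5, 0.20 ± 0.27 (SE), and from day 5 to day 8, 0.33 ± 0.27 (SE), did not pass the test (adjusted p = 0.775 and 0.421).

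By day 26 the 3 mg/kg animals read 119, 122, 134, 117 and 135, and the controls 36.7, 35.8, 40.2 and 50.5. The lowest dosed kidney was still above the highest control. The log2 change was 1.32 ± 0.20 (SE) (adjusted p = 0.000401), and the effect had changed from day 8 by -1.31 ± 0.28 (SE) (adjusted p = 0.000743). On this probe set the 3 mg/kg group of day 26 had an SD of 8.62 around a mean of 125.5. The dimmer Cdkn1a probe set read 66.9, 67.9, 69.4, 26.8 and 22.4 in the same animals, in the same order, and 13.1, 10.3, 10.9 and 20.0 in controls. There the dosed kidneys were above every control but differed widely among themselves. Havcr1, the tubular injury marker KIM-1, read 327, 36.5, 42.5, 167 and 19.2 in these 5 kidneys.

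**Figure D2:**
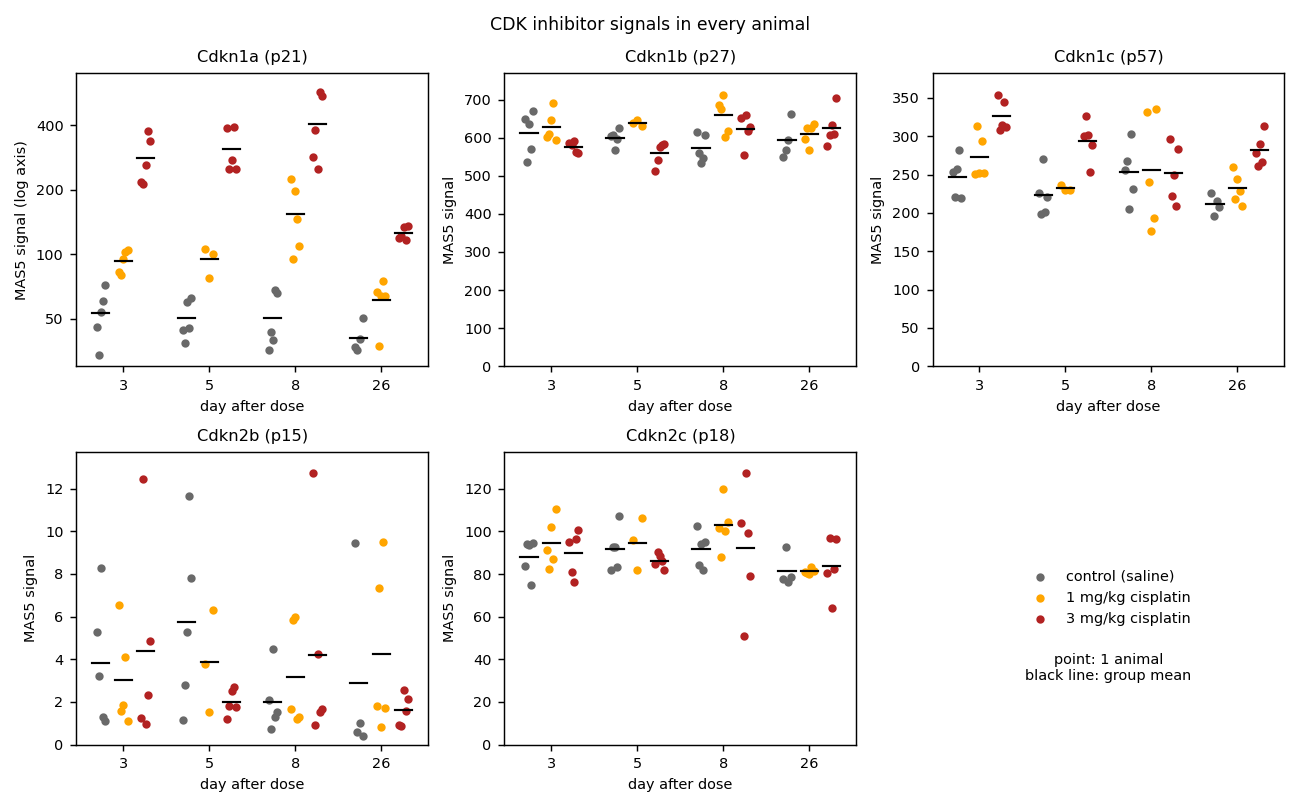
MAS5 signal of the 5 CDK inhibitors in every animal by day after dose, coloured by dose, with a black line at each group mean. The Cdkn1a axis is logarithmic and the others start at 0. Cdkn1a, on its brighter probe set, separates the doses on days 3, 5 and 8. Cdkn1c is raised at 3 mg/kg on days 3 and 5, and Cdkn2b stays at or under 12.7 in all 57 animals.

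At 1 mg/kg p21 RNA was raised less. On the brighter Cdkn1a probe set the day 3 animals read 82.3, 80.2, 94.6, 103 and 105, all above the highest control of that day. The log2 change was 0.68 ± 0.19 (SE), with an adjusted p of 0.259, so it was no call. On day 5 the 3 animals read 106, 77.7 and 99.8, also above every control, for 0.75 ± 0.22 (SE) (adjusted p = 1.00). On day 8 the animals read 224, 94.9, 197, 146 and 109.5, and on this probe set all 5 were above every control. The change was 1.32 ± 0.19 (SE), or 2.50-fold (adjusted p = 9.54e-05). When only these 2 groups were fitted, the adjusted p was 0.0531. On day 26 the animals read 66.9, 37.3, 63.7, 74.6 and 63.6, 4 of 5 above every control, and the change of 0.43 ± 0.20 (SE) was no call (adjusted p = 0.746). Members whose groups did not overlap with the controls at 1 mg/kg numbered 1, 2, 1 and 0 on days 3, 5, 8 and 26, where the share of all genes was 1.64%, 3.17%, 2.6% and 2.83%. Besides Cdkn1a, only Cdkn1b on day 5 was among them, and these counts rest on the brightest probe set of each gene. On the dimmer Cdkn1a probe set the groups were apart on day 5 only. There, replicate 1 of day 3 read 34.4, under the highest control at 36.2, and replicate 2 of day 8 read 33.5, under the highest at 33.9. On day 26 replicates 2 and 3 read 15.8 and 18.4, under the highest control at 20.0. The dimmer Cdkn1b probe set overlapped with controls on day 5.

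Within the 1 mg/kg group of day 8, the 5 animals differed in injury marker, and Havcr1 read 912, 32.4, 1085, 32.9 and 17.6 in the order of the Cdkn1a values above. On this brighter probe set the kidneys with the highest and second-highest p21 signals, replicates 1 and 3, were the 2 with the highest Havcr1. On the dimmer Cdkn1a probe set replicate 1 was again highest, at 123, but replicate 4 came second, at 100, and replicate 3 read 89.9. Replicates 2, 4 and 5 read between 17.6 and 32.9 for Havcr1. Their Cdkn1a signals on the brighter probe set, 94.9 to 146, were also above all 5 controls. The actin ratio of this group was 6.09 ± 1.51 (SD, n = 5), the widest SD of the 12 groups. Replicate 1 had the highest ratio of all arrays, 8.58. With the ratio in the fit, the Cdkn1a call of this group against control still passed. The part of the ratio in the values of single animals was not tested.

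The direct comparison of the doses for p21 gave 1.42 ± 0.19 (SE) on day 3, 1.55 ± 0.22 (SE) on day 5 and 1.31 ± 0.19 (SE) on day 8, higher at 3 mg/kg (adjusted p = 2.74e-06, 1.69e-05 and 9.13e-07). Cdkn1a was the 1 member of 7 called on each of those days, where 3.12%, 3.97% and 23.1% of all genes were called. On day 26, on the brighter of the Cdkn1a probe sets, all 5 animals at 3 mg/kg were above all 5 at 1 mg/kg. On the dimmer one the groups overlapped, at 22.4 to 69.4 for 3 mg/kg and 15.8 to 27.4 for 1 mg/kg. The difference on the brighter one, 0.89 ± 0.19 (SE), had an adjusted p of 0.0689. By limma 0% of the 11683 genes passed, where 1197 had an unadjusted p under 0.05. Cdkn1c was also higher at 3 mg/kg in all 5 animals that day, at 0.27 (adjusted p = 0.405), so 2 of 7 members did not overlap, against 2.67% of all genes. On day 5 the groups did not overlap for Cdkn1a, Cdkn1c and, on the brighter of its probe sets, Cdkn1b (3 of 7, against 14% of all genes). Members without overlap between the doses were 2 of 7 on day 3 (Cdkn1a and, on the brighter of its probe sets, Cdkn1b) and 1 of 7 on day 8 (Cdkn1a), where 6.98% and 5.84% of all genes did not overlap. Every comparison with control at a given day shares the same control animals between doses.

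On the brighter Cdkn1a probe set, the order of group means ran from 408 at 3 mg/kg on day 8 through 311 and 281 on days 5 and 3. These were followed by 154 at 1 mg/kg on day 8 and 126 at 3 mg/kg on day 26. Next came 1 mg/kg on days 5 and 3, at 94.5 and 93.0, then 1 mg/kg on day 26 at 61.2. The 4 control groups closed the order at 40.8 to 53.1. Of the 11 pairs of neighbours in this order, 9 overlapped in range. The breaks were between 3 mg/kg on day 26 and 1 mg/kg on day 5, and between 1 mg/kg on days 3 and 26. For each of the other 7 members, all 11 pairs of neighbours overlapped.

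The second Cdkn1a probe set had a mean signal of 74.7 over the 57 arrays. Its log2 changes at 3 mg/kg were 2.20, 2.67, 2.55 and 1.10 on days 3, 5, 8 and 26 (adjusted p = 4.84e-09, 1.87e-11, 1.09e-11 and 0.0199 over all probe sets kept). Its change at 1 mg/kg on day 8 was 1.39 (adjusted p = 0.00109). The genes most like Cdkn1a over the 57 arrays were Aen, Phlda3 and Plk2, with Pearson r of 0.94, 0.93 and 0.92. This is a description across arrays that share the same treatment groups and scaling.

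Cdkn1c encodes p57. Its controls on day 3 read 254, 220.1, 257, 282 and 219.5, and the 3 mg/kg animals 354, 308, 314, 345 and 312. All 5 dosed kidneys were above all controls, with means of 327 ± 21.3 (SD, n = 5) and 247 ± 26.8 (SD, n = 5). The log2 change was 0.39 ± 0.11 (SE), or 1.31-fold (adjusted p = 0.0177). With the actin ratio in the fit it was 0.26 and no longer passed (adjusted p = 0.223), and the adjusted p was 0.0514 without control replicate 2 and 0.0555 without control replicate 5. Members whose groups did not overlap numbered 3 of 7 at 3 mg/kg on day 3 (Cdkn1a, Cdkn1c and, lower, Ccnd2), where 10.2% of all genes did not overlap.

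On day 5 Cdkn1c read 299.7, 326, 302, 254 and 288 at 3 mg/kg and 225, 198, 269.8, 201 and 221 in controls. Here 4 of 5 dosed kidneys were above every control, and control replicate 3 reached into the dosed range. The change was 0.38 ± 0.11 (SE) (adjusted p = 0.0219). Leaving out 1 animal ended the call for control replicates 2 and 4 and for dosed replicates 1 and 2, with adjusted p of 0.0653, 0.0623, 0.0564 and 0.0614. Members whose groups did not overlap were 1 of 7 on day 5, against 9.11% of all genes.

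On day 8 the p57 signal at 3 mg/kg, 296, 223, 249, 209.6 and 284, lay within the range of controls, 256, 268, 205, 303 and 232, and the change was -0.0032 ± 0.11 (SE) (adjusted p = 0.986). Its 95% interval was -0.23 to 0.22. Members without overlap were 1 of 7 on day 8, against 16.4% of all genes. The change of the effect from day 5 to day 8, -0.38 ± 0.16 (SE), did not pass (adjusted p = 0.0840). On day 26 the dosed animals read 278, 262, 290.1, 266 and 313 and the controls 226, 196, 215 and 207, with no overlap. The change was 0.39 ± 0.12 (SE), with an adjusted p of 0.0802, and did not pass. Members without overlap were 2 of 7 on day 26, where 5.99% of all genes did not overlap.

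No change of Cdkn1c passed at 1 mg/kg, with log2 changes from -0.02 to 0.14. On day 8 the 1 mg/kg animals read 331, 241, 177, 193 and 336, 2 above and 2 below every control of that day. Beside these values, 0 of the 7 podocyte markers tested were called at 3 mg/kg on days 3, 5 and 26, where 9.85%, 8.8% and 0.753% of all genes were. On day 8, when 37.3% of all genes were called, Tcf21 rose while Podxl and Wt1 fell. The summed podocyte signal was 985 to 1268 in controls and 1142 to 1284 at 3 mg/kg on day 3, 1041 to 1260.3 and 1155 to 1269 on day 5, and 1035 to 1151 and 1144 to 1444 on day 26. Their part in the p57 values was not tested. The genes most like Cdkn1c were Cyb5r2, Tns2 and Itm2c, with r of 0.67, 0.62 and 0.61 over the 57 arrays.

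Cdkn1b encodes p27, a brake held at a steady level in resting cells and lost mostly through protein breakdown. It was the brightest inhibitor probe set in controls, at 534 to 669.8 over the 19 animals, although levels of different probe sets cannot be ranked as RNA. At 3 mg/kg the animals read 513, 542, 574, 580.0 and 583 on day 5 and 652, 555, 659, 617 and 627 on day 8, against 604, 608, 567, 595 and 625 and 616, 559.7, 534, 546 and 607 in controls. The day 5 values leaned low and those of day 8 leaned high, within a narrow band. Neither change passed: -0.10 ± 0.06 (SE) (adjusted p = 0.287) and 0.12 ± 0.06 (SE) (adjusted p = 0.107). Over the 8 comparisons with control, the changes of p27 ran from -0.10 to 0.20 and the lowest adjusted p was 0.0979, at 1 mg/kg on day 8. The widest 95% intervals over those comparisons lay between -0.22 and 0.31.

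A dimmer Cdkn1b probe set, at a mean signal of 47.5, went the other way from the bright one at 3 mg/kg on days 5, 8 and 26, with changes of 0.35, -0.22 and -0.13 (adjusted p = 0.0885, 0.201 and 0.662). Its change of effect from day 5 to day 8, -0.57, passed (adjusted p = 0.0302). Between the doses, 3 mg/kg against 1 mg/kg, the bright probe set gave -0.12 and -0.19 on days 3 and 5, and the dim one -0.19 and 0.07, none of which passed. The probe sets of this gene disagreed in sign on several days, and no direction is given for p27. The genes most like Cdkn1b were Herpud2, Tmem245 and Fmnl2, with r of 0.60, 0.52 and 0.51.

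Cdkn2c encodes p18. Its signal was 74.8 to 107 over the 19 controls and 51.0 to 127 over all 57 animals. On day 8 at 3 mg/kg it read 104, 51.0, 127, 99.1 and 79.2, which holds both the lowest and the highest animal of the series, against 103, 84.0, 94.1, 81.8 and 95.2 in controls. Its change that day was -0.03 ± 0.11 (SE) (adjusted p = 0.836). None of its 8 changes passed, and they ran from -0.07 to 0.14, with a lowest adjusted p of 0.607. A dimmer probe set, at a mean signal of 25.5, had the opposite sign at 1 mg/kg on all 4 days, with -0.34, -0.12, -0.18 and -0.06 on days 3, 5, 8 and 26, and no change on it passed. No direction is given for p18. Its nearest genes were Sf3b3, Mageh1 and Wtap, with r of 0.62, 0.58 and 0.57.

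Cdkn2b encodes p15, the neighbour of Cdkn2a and a textbook target of TGF-beta. Its single probe set read between 0.391 and 12.7 over the 57 arrays and exceeded the 40th percentile of the array's signals on 0 of them, so it was left out of the tests. Without the filter, it was called in none of the 16 comparisons. Its levels are too low for any statement on change. Cdkn2a, of the same locus, was among the list genes that were not tested.

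Ccnd1, which couples growth signals to the cell cycle, had 3 probe sets. On the brightest, day 5 controls read 531, 497, 542, 582 and 484, and 3 mg/kg animals 1066, 733, 522, 991 and 649, of which 4 of 5 were above every control. The mean was 792 ± 230.3 (SD, n = 5) against 527 ± 38.8 (SD, n = 5), so the dosed animals varied widely. The log2 change of 0.53 ± 0.19 (SE) had an adjusted p of 0.0736 and was no call. It passed without dosed replicate 3, whose signal was the lowest of the 5 (adjusted p = 0.0319), and when only the 2 groups were fitted (adjusted p = 0.0467).

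The other Ccnd1 probe sets were called on day 5. The middle one read 594, 501, 396, 608 and 551 at 3 mg/kg and 339, 322, 377, 392 and 349 in controls, a change of 0.54 (adjusted p = 0.000369 over all probe sets kept). The dimmest read 543, 464, 496, 574 and 492 and 416, 286, 305, 281 and 315, a change of 0.66 (adjusted p = 0.000674). On both, all 5 dosed kidneys lay above all 5 controls. The mean of the 3 probe sets gave 0.58 (adjusted p = 0.0021). Cyclin D1 RNA was thus higher on day 5 by 2 of 3 probe sets and by their mean, and not by the brightest alone.

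On day 8 no Ccnd1 probe set was called at 3 mg/kg. The brightest probe set read 721, 419.9, 815, 367 and 412 at 3 mg/kg and 566, 719, 563, 507 and 624 in controls, 2 animals above and 3 below every control. The change was -0.18 ± 0.19 (SE) (adjusted p = 0.477). The effect changed from day 5 to day 8 by -0.71 ± 0.27 (SE) on this probe set (adjusted p = 0.0619), by -0.58 on the middle one (adjusted p = 0.00534) and by -0.98 on the dimmest (adjusted p = 0.000298). On day 26 the dosed animals read 589, 489.7, 552, 428 and 589.9 and the controls 279, 440.0, 562 and 302, for 0.45 ± 0.20 (SE) (adjusted p = 0.258). No change of Ccnd1 passed at 1 mg/kg on any probe set, with changes on the brightest from 0.20 to 0.36. The nearest genes to Ccnd1 were Pola2, Msn and Snn, with r of 0.63, 0.60 and 0.60.

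**Figure D3:**
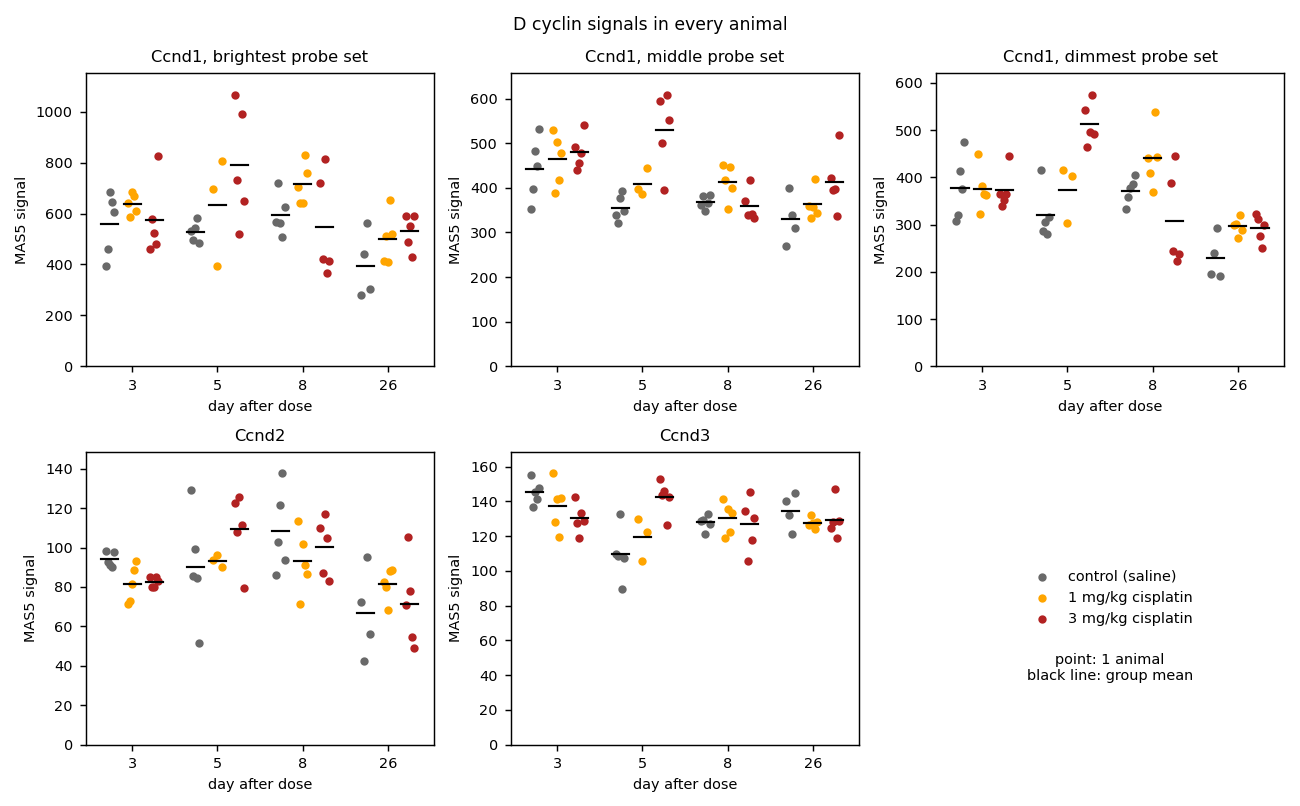
MAS5 signal of the D cyclins in every animal by day after dose, coloured by dose, with a black line at each group mean; Ccnd1 is shown on each of its 3 probe sets. At 3 mg/kg Ccnd1 is high on day 5. On day 8 it splits into higher and lower animals on the brightest and dimmest probe sets, and not clearly on the middle one. For Ccnd3 the day 5 controls, at a mean of 109, are the lowest group.

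Ccnd3, the D cyclin whose group means differed least, was called at 3 mg/kg on day 5. The dosed animals read 153, 143, 146, 126 and 142, and the controls 109, 108, 133, 89.4 and 107. In 4 of 5 dosed kidneys the signal was above every control, with means of 142 ± 9.90 (SD, n = 5) and 109 ± 15.4 (SD, n = 5). The change was 0.34 ± 0.07 (SE), or 1.27-fold (adjusted p = 0.000926). The day 5 controls were the lowest of the 12 groups for this gene: control means were 145 on day 3, 128 on day 8 and 134 on day 26. The 3 mg/kg mean of day 5 was below the control mean of day 3.

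On day 3 the sign was opposite and did not pass: 143, 128, 119, 133 and 128 at 3 mg/kg against 155, 137, 145, 141 and 148 in controls, a change of -0.14 ± 0.07 (SE) (adjusted p = 0.192). The effect of 3 mg/kg changed by 0.48 ± 0.10 (SE) from day 3 to day 5 (adjusted p = 0.00807) and by -0.36 ± 0.10 (SE) from day 5 to day 8 (adjusted p = 0.00924). The latter did not pass when only the groups of days 5 and 8 compared were fitted (adjusted p = 0.0578). Ccnd3 was the 1 member of 7 called in each of these, where 1.52% and 16.3% of all genes were called, and Cdkn1a the 1 called from day 8 to day 26, against 15%. On days 8 and 26 cyclin D3 differed from control by -0.02 and -0.05 (adjusted p = 0.864 and 0.797). The 3 animals at 1 mg/kg on day 5 read 129.6, 105 and 123, within the range of the controls, for 0.11 ± 0.08 (SE) (adjusted p = 1.00). The nearest genes were Bspry, Rnf25 and Grk6, with r of 0.58, 0.57 and 0.56.

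Ccnd2 passed no test. On day 3 the 3 mg/kg animals read 85.3, 79.9, 79.8, 84.9 and 82.8, all below every control at 98.5, 92.7, 91.0, 89.9 and 97.6. Although the groups did not overlap, the change of -0.16 ± 0.15 (SE) did not pass (adjusted p = 0.517). On day 5 the dosed animals read 123, 108, 126, 112 and 79.2 against 129, 85.3, 99.2, 84.5 and 51.8 in controls. The groups overlapped and the change of 0.27 ± 0.15 (SE) did not pass (adjusted p = 0.255). Over its 8 comparisons the changes of cyclin D2 ran from -0.19 to 0.28. Its nearest genes, Nipbl, Eprs1 and Naa15, had r of 0.82, 0.81 and 0.80.

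On day 8 the 5 animals at 3 mg/kg were not alike, and some members differed with them. Cyclin D1 read 721 and 815 in replicates 1 and 3, and 419.9, 367 and 412 in replicates 2, 4 and 5. In the same kidneys p21 was ordered the opposite way, at 285 and 251 in replicates 1 and 3, and 381, 574 and 547 in the others. Ccnd3 was highest in replicates 1 and 3 as well, at 134 and 146, against 106, 118 and 130.3. So was Ccnd2, at 110 and 117, against 87.2, 105 and 83.2. Cdkn1c did not follow this order, at 296 and 249 in replicates 1 and 3 and 223, 209.6 and 284 in the others. On its brighter probe set Cdkn2c was highest in replicates 1 and 3, at 104 and 127, against 51.0, 99.1 and 79.2. Its dimmer probe set did not follow this order, at 26.3 and 22.1 against 22.3, 26.5 and 30.6. The brighter Cdkn1b probe set, at 652 and 659 against 555, 617 and 627, was likewise highest in replicates 1 and 3. On the dimmer Cdkn1b probe set replicate 3 was highest, at 56.1, but replicate 4 read above replicate 1. Replicate 2 had the lowest median signal of all arrays, 20.3, and the part of this in its values was not tested.

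The thick ascending limb gene Umod, named here after its values were seen, read 785 and 921 in replicates 1 and 3 and 2.68, 21.6 and 5.37 in replicates 2, 4 and 5, where the day 8 controls had 2393 to 3177. Havcr1 did not follow this split, at 2177, 829, 679.7, 1581 and 1639.5 in the order of replicates. On the dimmest Ccnd1 probe set the same animals stood apart, at 387 and 445 against 244, 223 and 237. The middle Ccnd1 probe set showed no clear split. Replicates 1 and 3 were highest there too, at 370 and 417 against 340, 342 and 332, but replicate 1 lay within the range of controls. On the second Cdkn1a probe set the animals did not stand apart: replicates 1 and 3 read 173 and 187, and the others 183, 171 and 235. With 5 animals these are descriptions, and no test was made of the split.

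**Figure D4:**
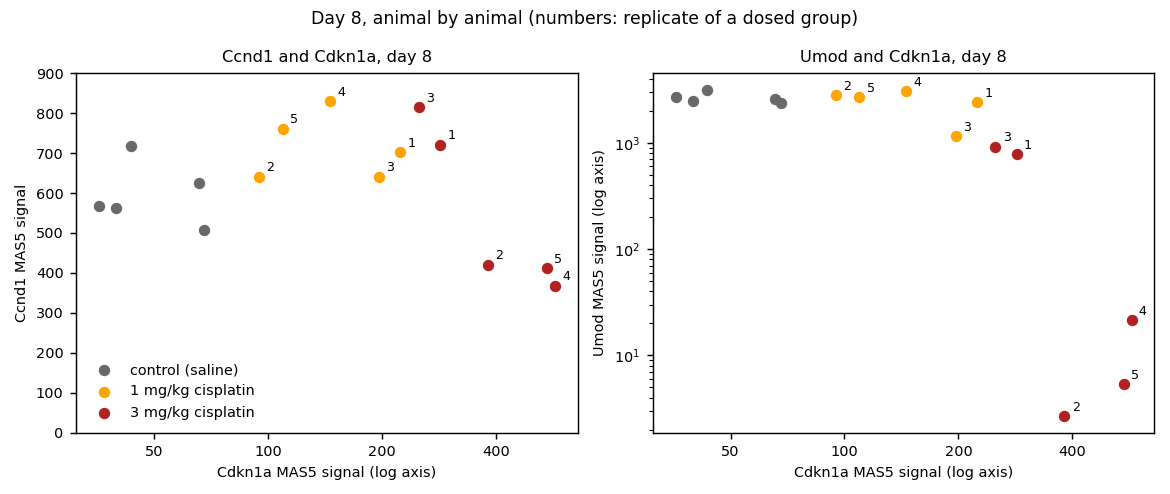
Day 8 animals, with Ccnd1 signal (left, axis from 0) and Umod signal (right, logarithmic axis) against Cdkn1a signal (logarithmic axis). Numbers give the replicate of each dosed animal. At 3 mg/kg, replicates 2, 4 and 5 combine the highest Cdkn1a with Ccnd1 of at most 419.9 and Umod of at most 21.6, while replicates 1 and 3 have Ccnd1 at 721 and 815.

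Markers of other cells also differed between 3 mg/kg and control on day 8, when 37.3% of all genes were called. Of the 8 macrophage and myeloid markers tested, 7 rose, with a summed signal of 2260.0 to 3345 against 1629 to 1916 in controls. All 6 markers of the loop of Henle and distal tubule fell, with sums of 728 to 5623 and 10442 to 11744. All 5 collecting duct markers fell, and 4 of 7 fibroblast markers rose. Proximal tubule markers summed to 17042 to 18864 against 15564 to 18487, with 1 of 8 higher and 2 lower, a share near that of all genes. The part of these changes in the levels of the cyclins and inhibitors was not tested. On days 3 and 5 the macrophage list had 0 of 8 called, where 9.85% and 8.8% of all genes were. The loop of Henle and distal tubule markers on day 5 summed to 8991 to 10479 at 3 mg/kg. The controls of that day had 11518.5 to 12955, with no overlap. Fibroblast sums overlapped, at 2174 to 2568 against 1807 to 2249. The part of these sums in the day 5 values of the members was not tested. On day 3, 2 of 4 blood cell markers were lower at 3 mg/kg, Hbb by -1.47 and Alas2 by -0.92, named after their values were seen, and the list summed to 522 to 1098 against 1652 to 2798 in controls, with no overlap. This was the day of the first Cdkn1a and Cdkn1c calls, and the part of blood cells in them was not tested.

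In control kidneys alone, from day 3 to day 26, all 7 members leaned lower on their brightest probe sets and none passed, where 2.03% of all genes were called. None of the 7 separated the groups either, while 5.57% of all genes did. The dimmer Cdkn1b probe set leaned higher, at 36.6, 35.7, 41.8, 36.1 and 47.1 on day 3 and 56.0, 30.9, 54.5 and 47.2 on day 26. Ccnd2 read 72.5, 42.3, 95.2 and 56.1 on day 26, 3 of 4 below every day 3 control, for -0.45 ± 0.15 (SE) (adjusted p = 0.124). Ccnd1 changed by -0.50 ± 0.20 (SE) (adjusted p = 0.226), and passed on its dimmest and middle probe sets at -0.68 and -0.41 (adjusted p = 0.00457 and 0.0406). 

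Across the 57 arrays, the deviations of animals from their group means correlated between any pair of members by at most 0.38 (Cdkn2c with Ccnd3), a description over arrays that share groups and scaling. For Cdkn1a with Ccnd1 that value was -0.00042 and for Cdkn1a with Ccnd3 0.05.

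The kinases and later cyclins that the members act on were followed from lists of pathway genes. Their counts stand against shares of 9.85%, 8.8%, 37.3% and 0.753% of all genes called at 3 mg/kg on days 3, 5, 8 and 26, and differences between days were not tested for them. Of 4 cyclin-dependent kinases tested, none passed at 3 mg/kg on days 3, 5 and 26, and on day 8 Cdk1, the mitotic kinase, rose by 0.74 ± 0.20 (SE) and Cdk4, the partner of the D cyclins, by 0.25 ± 0.07 (SE) (adjusted p = 0.00320 and 0.00349). Of 6 E, A and B cyclins, 5 rose on day 8, namely Ccna2 by 0.80, Ccnb2 by 0.77, Ccnb1 by 0.70, Ccne1 by 0.62 and Ccne2 by 0.56. On days 3, 5 and 26 none of the 6 passed. The list's median change was 0.66 on day 8, against 0.04 over all genes. Among the other CDK inhibitors, Cdkn3, a phosphatase that acts on Cdk2, rose by 0.48 ± 0.15 (SE) on day 5 and 0.62 ± 0.15 (SE) on day 8, while Cdkn2d, the INK4 inhibitor p19, did not pass, at -0.02 and 0.02.

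Downstream of the D cyclins, 12 genes of the RB and E2F group were tested. On day 3, E2f7 rose by 0.35 and Tfdp2, a partner of E2F proteins, fell by 0.46. On day 5 E2f8 rose by 0.49, and Rbl2 (p130), the pocket protein of resting cells, and Tfdp2 fell by 0.29 each. On day 8, 5 rose and 1, Rbl2, fell, led by E2f8 at 0.49, Rbl1 (p107) at 0.37 and E2f7 at 0.33, which is 6 of 12 called on a day when 37.3% of all genes were. Rb1 itself did not pass on any day, with changes from -0.12 to 0.18. None of the 12 passed on day 26.

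Of 9 S phase targets, 3, 6, 6 and 0 rose on days 3, 5, 8 and 26. On day 3 they were Cdt1, a licensing factor for replication origins, at 0.49, Mcm7, a subunit of the replicative helicase, at 0.43, and Tyms, which makes thymidylate, at 0.42. On day 5 the largest was Mcm6 at 0.67. Of 9 mitosis genes, 0, 1, 8 and 0 rose, with Aurkb at 0.48 alone on day 5, and Top2a at 0.75, Mki67 at 0.70, Birc5 at 0.54 and Bub1 at 0.54 in the lead on day 8. The list medians of the mitosis genes were 0.03, 0.19, 0.53 and 0.09 on those days.

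**Figure D5:**
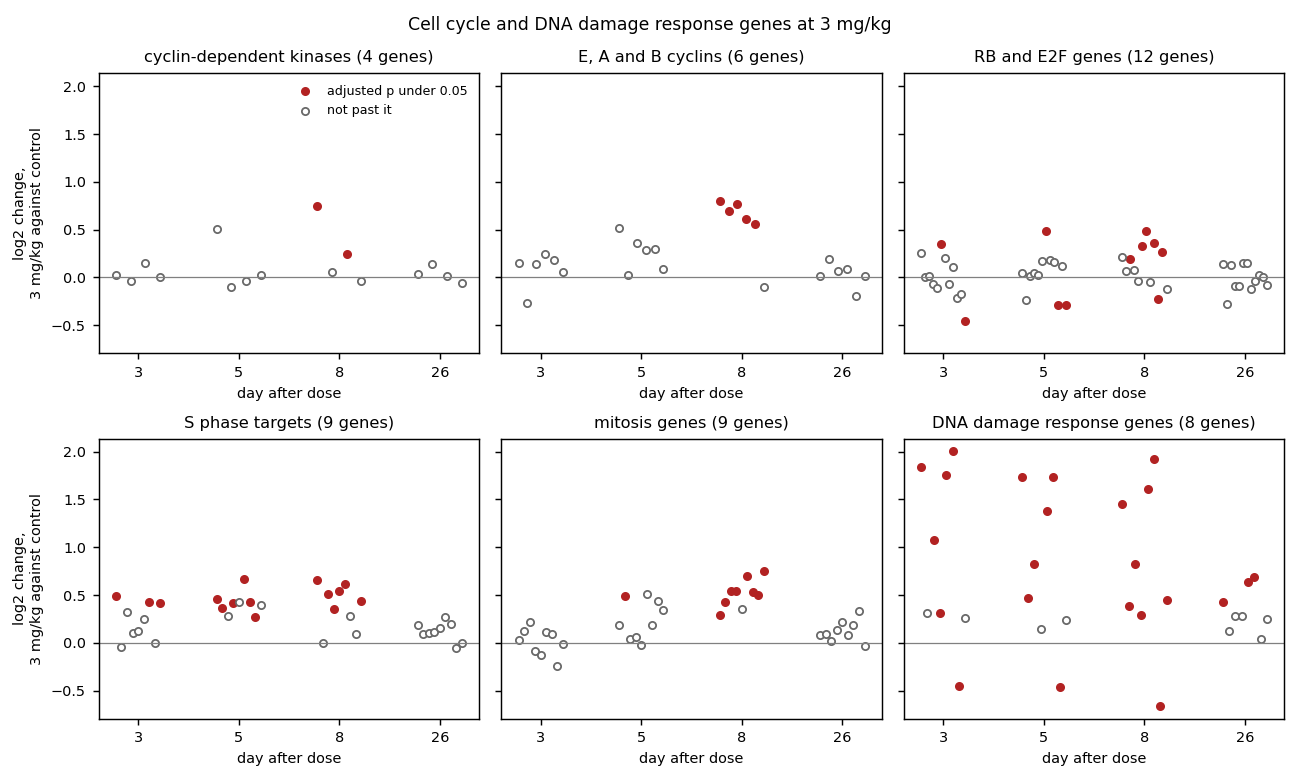
Log2 change at 3 mg/kg against the control of the same day for every tested gene of 6 lists, by day after dose. Red points passed an adjusted p under 0.05. The E, A and B cyclins and mitosis genes are called mainly on day 8, the S phase targets on days 3, 5 and 8, and DNA damage response genes on all 4 days.

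The list of DNA damage response genes, 8 of them tested besides Cdkn1a, had 5, 5, 7 and 3 genes higher and 1, 1, 1 and 0 lower at 3 mg/kg on days 3, 5, 8 and 26. Plk2, a polo-like kinase, changed by 2.0, 1.73, 1.93 and 0.69 on those days. Phlda3, an inhibitor of Akt, changed by 1.76, 1.38, 1.61 and 0.64. Ccng1 (cyclin G1) was at 1.84 on day 3 and 0.43 on day 26, and Mdm2, a ubiquitin ligase, was at 1.07 on day 3. The gene called lower was Sesn1, at -0.45, -0.46 and -0.66. At 1 mg/kg this list had 4, 2, 4 and 0 genes higher, and Ccng1 and Plk2 were called on days 3 and 5, where Cdkn1a was not.

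Of the 20 transcription regulators of these inhibitors and cyclins, 3, 5, 11 and 6 rose and 1, 0, 1 and 0 fell at 3 mg/kg on the 4 days. Egr1 and Fos, immediate early genes, were called on all 4 days, with Egr1 at 1.92, 1.60, 1.53 and 1.97. Stat3 rose by 0.45 on day 3 and 0.69 on day 5. Myc, which drives cell growth and can repress Cdkn1a, rose by 0.66 on day 5, 1.62 on day 8 and 1.00 on day 26. Smad7, an inhibitor of TGF-beta signalling, was the gene called lower, at -0.34 on day 3 and -0.38 on day 8. With 1 mg/kg, 5 of the 20 rose on day 8 and none on the other days, led by Fos at 1.85 and Atf3 at 1.65.

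The remaining lists had few calls. Of 8 genes of p27 turnover tested, Cks1b, the cofactor that presents p27 to its ligase, rose by 0.65 ± 0.12 (SE) on day 8, and Cops5 fell by 0.21 on day 26. Of 5 genes that set CDK phosphorylation, the phosphatase Cdc25b and Mnat1, which assembles the CDK-activating kinase, fell by 0.45 and 0.19 on day 3, and the kinase Pkmyt1 rose by 0.33 on day 8. With 1 mg/kg none of the genes of these lists, nor of the kinases, cyclins, RB and E2F genes, S phase targets or mitosis genes, passed on any day.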

How the data were processed

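Kidney RNA of 57 rats was read on Affymetrix Rat 230 2.0 arrays, 1 array an animal. The values used are the intensity of each probe set (its signal) as the authors deposited it, on a linear scale. Per the submitters' processing notes it came from MAS5 (settings not given in the sources used here). No further normalization was applied. Values were taken as log2(signal + 16). Probe sets above the 40th percentile of their array on at least 3 arrays were kept (21829), and each of the 11683 genes so measured was read from its probe set with the highest mean. A log2 change is on this scale, which understates the change of dim probe sets. limma 3.58.1 in R 4.3.3 (lmFit, eBayes with trend) fitted the 12 groups together, without pairing animals, and p-values were adjusted by the Benjamini-Hochberg method over all genes of each of 16 comparisons. The fit was tested on simulated data.

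The labels gave the dose, the day and the replicate number of each array. Numbers were shared between groups, and the pairing was checked: over 54 pairs with the same number the correlation of deviations from the group mean had a median of 0.024 and a range of -0.17 to 0.26, so the numbers did not pair the animals. The alternatives tried were other offsets, normalizations, filters, probe set rules and variance models, the groups compared alone, array weights, a replicate block, the actin ratio as a covariate, and leaving out each animal of a comparison in turn.

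The members and lists were chosen with earlier results of these data known. Named were all 8 members, for each the 3 genes with the highest correlation over the arrays, up to 4 called genes of each pathway list with the largest change in each comparison with control, and Havcr1. Umod, Rb1, Cdkn2d, Ccne2, Cdkn2a, Sesn1, Tcf21, Podxl, Wt1, Hbb and Alas2 were named after their values were seen. Gene names came from GEO's annotation of the array, and promoters from RefSeq. The number of arrays limits the precision. Cdkn2a, Cdk6, Ccna1, E2f3, Skp2, Cdc25c, Rrm2, Cdc6, Tpx2 and Btg2 of the lists were not tested, having no probe set kept, and 1 further list gene is not reported here. Protein sequences were not used here.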

Additional observations from a re-analysis of the deposited data

Results flagged for a closer look

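Cdkn1a in replicate 2 of the 1 mg/kg group of day 26 had a signal of 37.3, where the other 4 animals read 63.6 to 74.6, and its gap to them was 0.755 of the range of the group. Cdkn2c in replicate 2 of the day 26 controls had a signal of 92.5, where the other 3 read 76.4 to 78.4, a gap of 0.863 of the range. Of 77 member and group pairs examined these were the 2 in which 1 animal stood apart by Dixon's 95% limit, which chance reaches in about 1 in 20 groups.

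The effect of 3 mg/kg differed between days for 2 members by a test of the difference itself. For Cdkn1a it changed by -1.31 from day 8 to day 26 on the log2 scale. For Ccnd3 it changed by 0.48 from day 3 to day 5 and by -0.36 from day 5 to day 8, in which the low day 5 controls take part.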

How the results depend on the processing

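For the 112 log2 changes of members, 1568 values were recomputed under alternatives that kept all animals: 1550 kept their direction and their side of the threshold, 3 no longer passed, 15 newly passed and none that was called reversed, while 31 uncalled values changed sign. Of 1274 values with 1 animal left out, 1245 were the same in this sense, 6 no longer passed and 23 newly passed. The number of members called changed under few settings. At 3 mg/kg it became 1 on day 3 with the actin ratio as a covariate, and 2 on day 8 with quantile normalization, where Cdkn1b passed at 0.15 (adjusted p = 0.0497). On day 5 Ccnd1 passed as well with probe sets of a gene averaged and with the groups compared alone, which raised the number called. At 1 mg/kg on day 8 it became 0 when the groups were compared alone. For 3 mg/kg against 1 mg/kg on day 8 it became 2 with probe sets of a gene averaged, where Ccnd1 passed at -0.39 (adjusted p = 0.0202), and on day 26 it became 1, Cdkn1a, with no offset, with the groups alone, with array weights and with every probe set tested, an alternative chosen after seeing the data. For the change of the effect from day 5 to day 8 it became 2 with quantile normalization, the mean of probe sets or the actin ratio, and 0 with the groups alone. From day 8 to day 26 it became 2, and for the controls of day 26 against day 3 it became 1, with the mean of probe sets.

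The replicate block, which the numbers do not support as a pairing, changed 2 counts: 3 mg/kg against 1 mg/kg became 2 on day 5, where Ccnd3 passed at 0.25 (adjusted p = 0.0402), and 1 on day 26, where Cdkn1a passed (adjusted p = 0.0187).

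With 1 animal left out, the counts ran from 1 to 2 at 3 mg/kg on day 3, from 2 to 4 on day 5 and from 1 to 2 on day 8, from 1 to 2 at 1 mg/kg on day 8, from 1 to 3 and from 0 to 1 for 3 mg/kg against 1 mg/kg on days 8 and 26, from 1 to 3 and from 1 to 2 for the change of the effect from day 5 to day 8 and from day 8 to day 26, and from 0 to 1 for the controls. The share of all genes called moved by over 1.5 times in 41 of 224 values with all animals and in 60 of 182 with 1 left out. The cause of these shifts was not tested. Cdkn2b lies near the lowest signals of the array, which limits any statement on it.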
